A study of Capra hircus with 21 samples.

Results

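The genes described here are the nuclear genes of the mitochondrial respiratory chain and ATP synthase in goat (Capra hircus) oocytes and preimplantation embryos. A row of the deposited table was a member when it did not lie on chromosome M and its symbol began with NDUF, SDHA to SDHD, UQCR, COX4 to COX8 or ATP5. The rule found 52 of the 19040 listed genes: 31 for complex I (26 subunits and 5 assembly factors), 6 for complex II (3 subunits and 3 assembly factors), 4 subunits for complex III, 6 for complex IV (5 subunits and the supercomplex factor COX7A2L), and 5 for complex V (4 subunits and the inhibitor ATP5IF1). The rule used names only and no measured value. Some known subunits were not among the members, such as NDUFV2, SDHB, UQCRB, COX4I1, COX5A and ATP5F1A. Counts and sums per complex thus cover only a part of each complex. RNA was sequenced from oocytes matured in the animal and from 2-cell, 4-cell, 8-cell and 16-cell embryos, morulae and blastocysts that had developed there, with 3 libraries per stage lettered A to C. No group carried a treatment, and breed, age, the number of oocytes or embryos per library and their origin from separate females were not given in the labels used here, so the p-values measure only the spread between these libraries, which may be technical.

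Mitochondria pass electrons from NADH (through complex I) and from succinate (through complex II) to ubiquinone, on through complex III and cytochrome c to complex IV, which reduces oxygen. Complexes I, III and IV pump protons, and complex V, the ATP synthase, uses the gradient to make ATP. Most subunits are encoded in the nucleus and imported, while a small set is encoded in mitochondrial DNA, so complexes I, III, IV and V are built from the products of both genomes, and complex II from nuclear genes alone. Core subunits carry the catalysis, accessory subunits surround and stabilise them, and assembly factors help to build a complex without remaining in it. In mammals the egg supplies the mitochondria of the embryo.

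Values are RPKM (reads per kilobase of gene span and per 1 M reads, as deposited), in which the span includes introns, which lowers the value of genes with long introns. Reads in listed genes ranged from 8.46 to 26.7 M per library, and 3 reads in a gene of 10 kb amounted to 0.00451 to 0.0125 RPKM. The members spanned 237 to 113781 bp, with a median of 8165 bp, on 19 chromosomes and 1 scaffold, and held 0 to 26138 reads per library, with a median of 412. The libraries 16-cell C, morula C and blastocyst C resembled the stage before their own more than their stage mates did: over the 4253 genes tested, 16-cell C correlated with the 8-cell mean at 0.836, against 0.674 and 0.660 for 16-cell A and B, and morula C with the 16-cell mean at 0.943, where its mates morula A and morula B gave 0.822 and 0.862. Morula C correlated with the mean of its own stage mates at 0.889, below its value with the 16-cell mean. Blastocyst C was closer to the morula mean than its stage mates were, at 0.884, with 0.839 for blastocyst A and 0.775 for blastocyst B. Unlike morula C, blastocyst C correlated more with its own stage mates, at 0.943. The summed RPKM of 5 oocyte genes ran from 2.97 to 98.1 over the morula libraries. The label of morula A says that its reverse reads were not submitted. Among markers of other cell types, the summed RPKM per library was 0.0756 to 1.94 for 7 cumulus and granulosa genes and 0.04 to 0.612 for 4 leukocyte genes. The sum of 3 fibroblast and smooth muscle genes was 0.0479 to 0.118 in blastocysts and 3.16 to 4.3 in oocytes, almost all of it DCN, and that of 4 oviduct and uterine epithelium genes was 1.18 to 4.68 in blastocysts and 0.459 to 0.577 in oocytes, mostly EPCAM, an epithelial gene. Of the cumulus and granulosa genes, TNFAIP6 had means of 0.229 RPKM in oocytes, 1.13 at the 16-cell stage and 0.609 in morulae. The leukocyte gene CD68 had means of 0.172 RPKM at the 8-cell stage and 0.221 at the 16-cell stage. The leukocyte marker PTPRC and the granulosa marker FSHR were at or near 0 in oocytes and blastocysts. The part of these markers in the results was not tested. In whole embryos a change in the share of a cell type and a change in RNA per cell cannot be told apart.

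Over the 52 members, the stage with the highest mean RPKM was the blastocyst for 36, the morula for 7, the 4-cell stage for 4, the oocyte for 3 and the 2-cell stage for 2. The lowest mean fell at the 8-cell stage for 19, at the 16-cell stage for 16, in oocytes for 11, in blastocysts for 5 and at the 2-cell stage for 1. Of the subunits of complexes I, III, IV and V, 33 of 39 were highest in blastocysts. Of the complex II genes, 3 of 6 were highest in morulae and 1 of 6 in blastocysts.

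**Figure D1:**
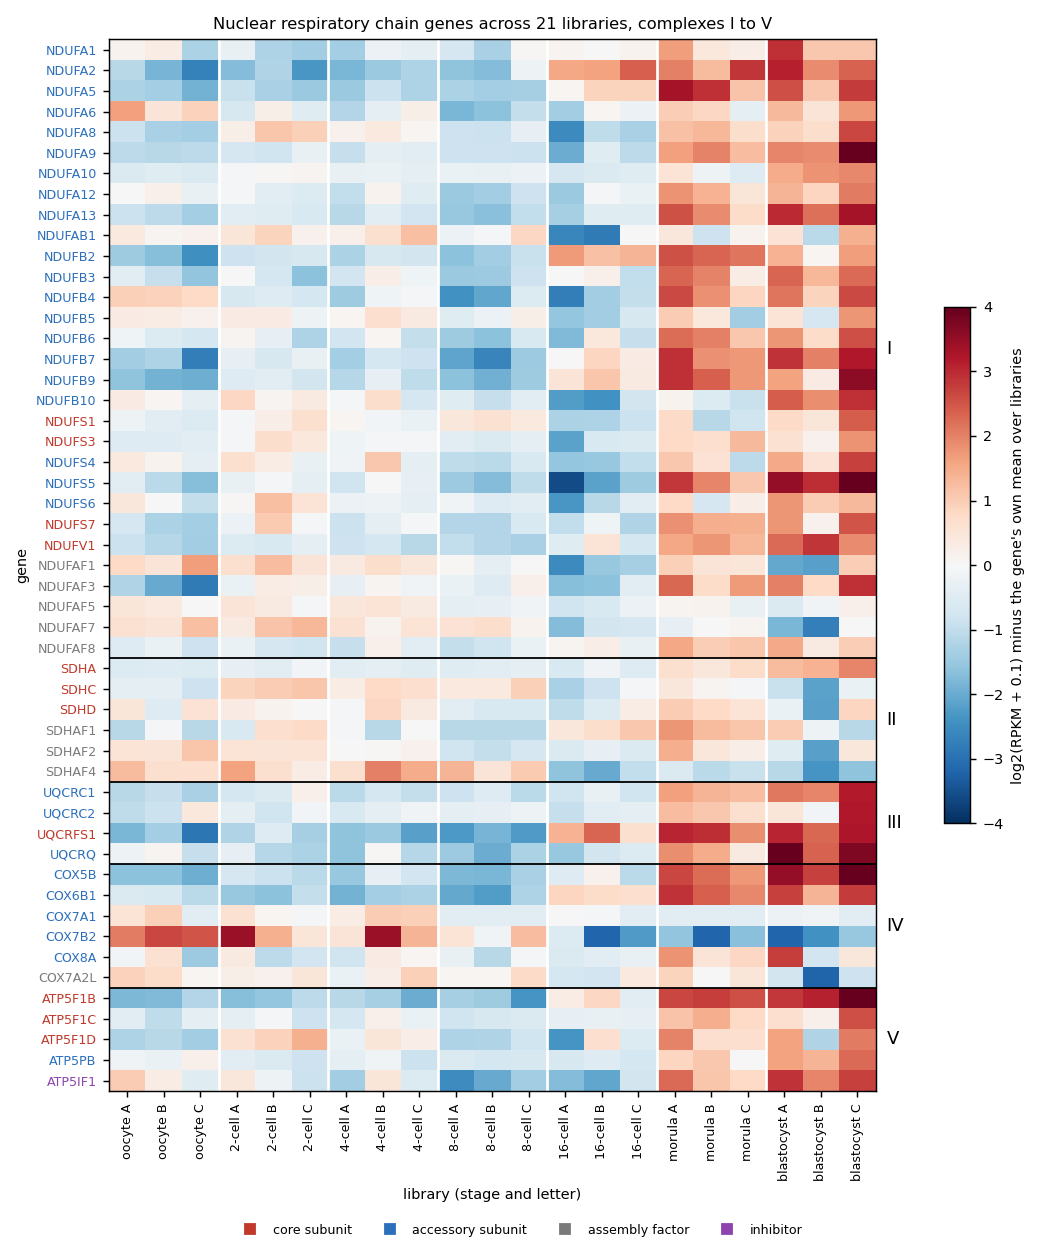
Level of 51 members (rows, grouped by complex I to V) in 21 libraries (columns, oocyte to blastocyst), as log2(RPKM + 0.1) minus the gene's own mean over the libraries; gene names are coloured by role. Most subunits are below their mean up to the 8-cell stage and above it in morulae and blastocysts, as is the complex II subunit SDHA. The assembly factor NDUFAF3 is also above its mean in morulae and blastocysts, while the assembly factor NDUFAF7 is highest at the 2-cell stage.

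The share of gene reads that fell in the 52 members stayed between 1340 and 2730 reads per 1 M gene reads from the oocyte to the 16-cell stage and was higher afterwards. It was 2650, 2220 and 2500 reads per 1 M gene reads in oocytes A, B and C, 1340, 1340 and 1860 at the 8-cell stage, 1630, 2390 and 2280 at the 16-cell stage, 8760, 6960 and 4570 in the morula, and 12400, 7470 and 14000 in blastocysts. Every morula and blastocyst library lay above every earlier library, with morula C and blastocyst B the lowest of their stages.

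The complexes differed in course. The 26 complex I subunits held 986 ± 189 reads per 1 M gene reads (SD, n = 3 libraries for each stage) in oocytes, 545 ± 186 at the 8-cell stage, 3210 ± 1290 in the morula and 5580 ± 1740 in blastocysts. The 5 complex IV subunits held 101 ± 21.8 reads per 1 M gene reads in oocytes, 45.5 ± 20.8 at the 8-cell stage, 292 ± 17 at the 16-cell stage, 932 ± 313 in the morula and 1200 ± 551 in blastocysts. The 3 complex II subunits stayed between 89.4 ± 45.4 reads per 1 M gene reads at the 16-cell stage and 192 ± 33.2 in morulae, and were at 129 ± 65.5 in blastocysts and 118 ± 31.6 in oocytes. The 9 assembly factors held 510 ± 73.3 reads per 1 M gene reads in oocytes, 150 ± 57.4 at the 16-cell stage, 372 ± 75 in the morula and 192 ± 119 in blastocysts. Chromosome M took a larger share of the reads in blastocysts (given further on), and the sums differ when taken per 1 M gene reads outside it. Complex I subunits then held 8700 ± 1900 in blastocysts and 3560 ± 1500 in morulae, and complex IV subunits 1850 ± 666 in blastocysts and 1030 ± 369 in morulae. Complex II subunits were at 199 ± 87.3 in blastocysts and 212 ± 43 in morulae, and assembly factors at 294 ± 168 in blastocysts and 409 ± 84.5 in morulae. These sums carry no test.

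**Figure D2:**
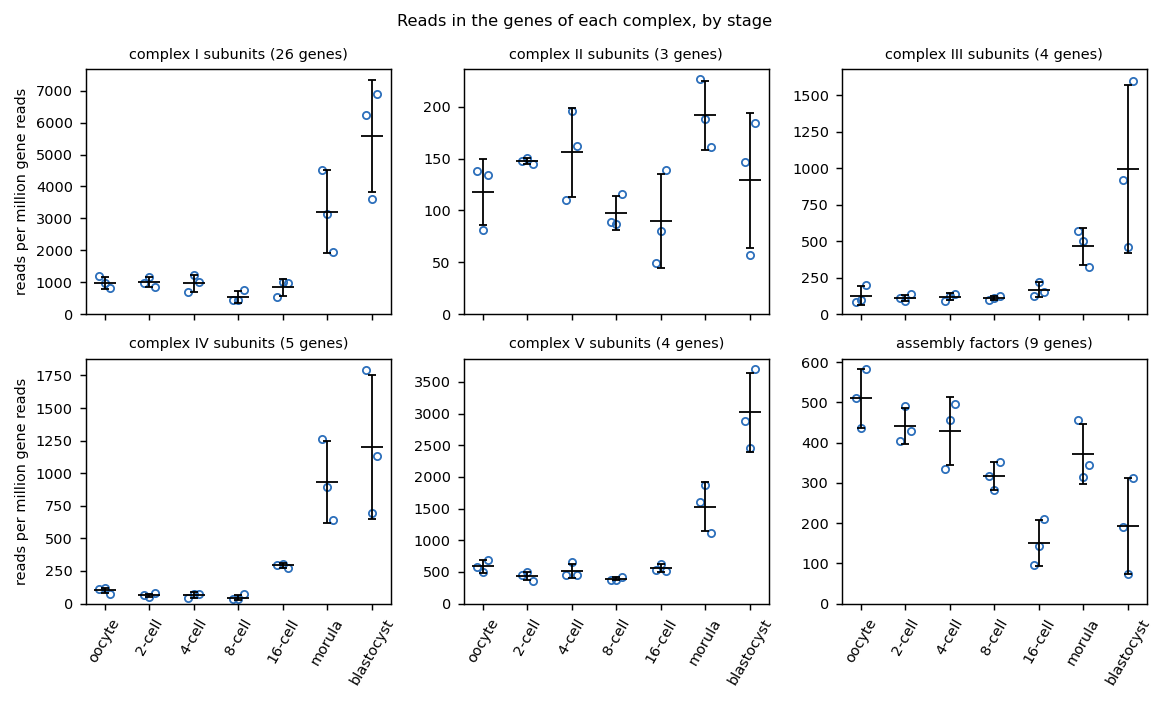
Reads in the genes of each complex, per 1 M gene reads (y, linear from 0) by stage (x); open circles are libraries, and the line and bar are the mean and SD of 3 libraries. Complexes I, III, IV and V are highest in blastocysts, complex IV is already at 292 ± 17 at the 16-cell stage, and assembly factors are highest in oocytes at 510 ± 73.3.

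The test took in each gene that reached 1 RPKM in 3 or more libraries, as 43 of the 52 members did; the other 9 are described further on. The test was limma on log2(RPKM + 1) over all 4253 such genes, and calls required a Benjamini-Hochberg adjusted p below 0.05 together with a log2 fold change of at least 1 in size. Fold changes on this scale understate the change of low genes. In the F test over all stages 40 of 43 members were called, against 93.8% of all genes tested, a share near the background; the members not called were NDUFB5, SDHD and COX8A. Consecutive comparisons share a stage, so a library that stands apart enters 2 of them in opposite directions.

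Through the first cleavages few members changed. At the 2-cell stage against the oocyte 1 member was called higher and 0 lower, against 4.37% and 0.400% of all genes tested. The gene called was NDUFA8, an accessory complex I subunit of the intermembrane-space side (chromosome 11, 92615392 to 92634881 in the coordinates of the deposited table, whose genome build is not given in the sources used here). NDUFA8 had 1.49, 2.77 and 2.48 RPKM in 2-cell embryos A, B and C, against 0.639, 0.445 and 0.426 RPKM in oocytes A, B and C. The stages did not overlap, and the log2 fold change was 1.09 ± 0.30 (SE, adjusted p = 0.0213). This call was lost without oocyte B, oocyte C, 2-cell B or 2-cell C, and under another scaling of the libraries (log2 fold change 0.72 with median-ratio scaling), under which 0 members were called higher and 3 lower, against 0.828% and 3.64% of all genes. Quantile normalization gave 0 higher and 2 lower, against 2.56% and 1.90% of all genes. The excess of higher over lower calls among all genes at this step thus turned round with median-ratio scaling.

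Some members differed between the 2-cell stage and the oocyte without passing the test. Of the 43, 28 were on the higher side and 15 on the lower, with a median log2 fold change of 0.11, against 0.20 over all genes. NDUFAF3 had 1.9, 2.84 and 2.71 RPKM in 2-cell embryos, against 0.937, 0.498 and 0.241 RPKM in oocytes (log2 fold change 1.17, adjusted p = 0.054). ATP5F1D had 1.51, 1.87 and 2.74 RPKM, against 0.345, 0.387 and 0.303 RPKM (log2 fold change 1.16, adjusted p = 0.0576). NDUFB4 and NDUFA6 were lower. NDUFB4, an accessory subunit of the membrane arm of complex I, had 2.45, 2.65 and 2.34 RPKM in 2-cell embryos, against 7.66, 7.46 and 6.79 RPKM in oocytes (log2 fold change -1.25, adjusted p = 0.0716). NDUFA6, an accessory subunit at the ubiquinone end of the matrix arm, had 1.5, 2.83 and 1.68 RPKM in 2-cell embryos, against 7.68, 3.46 and 4.56 RPKM in oocytes (log2 fold change -1.02, adjusted p = 0.0685). For NDUFB4 and NDUFA6 every 2-cell library lay below every oocyte library, and for NDUFAF3 and ATP5F1D above.

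At the 4-cell stage against the 2-cell stage limma called 0 members in either direction, against 0% of all genes tested in each, and 1 member had an unadjusted p below 0.05. At the 8-cell stage against the 4-cell stage it called 0 members, against 0.588% higher and 0.0941% lower over all genes, and 1 member had an unadjusted p below 0.05. The point estimates of that step leaned down: 38 of 43 members were lower at the 8-cell stage, with a median log2 fold change of -0.26, against a median of 0.00 over all genes tested, and the lowest adjusted p was 0.307. All 9 tested core subunits and all 4 tested subunits each of complexes IV and V were on the lower side, and none of these single differences passed the test. For some the stages did not overlap even so, as for ATP5F1D, a central-stalk subunit of the ATP synthase, which had 0.347, 0.352 and 0.5 RPKM at the 8-cell stage, against 0.765, 1.36 and 1.17 RPKM at the 4-cell stage (adjusted p = 0.533).

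At the 16-cell stage, 7 members were called higher than at the 8-cell stage and 2 lower, which is 16% and 4.7% of the 43, against 19.4% and 15.9% of all genes tested. The count of higher members is thus near the background. The 7 belonged to complexes I, III, IV and V, and 6 of them were called without each library in turn as well.

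UQCRFS1, the Rieske iron-sulfur protein that passes electrons inside complex III (chromosome 18, 2259431 to 2263756), had 3.61, 7.05 and 2.08 RPKM in 16-cell embryos A, B and C, against 0.188, 0.289 and 0.192 RPKM in 8-cell embryos A, B and C. Its log2 fold change was 1.99 ± 0.32 (adjusted p = 4.06e-05). COX6B1, an accessory subunit on the intermembrane-space face of complex IV (chromosome 18, 47221047 to 47230250), had 10.8, 9.91 and 9.53 RPKM in 16-cell embryos, against 1.35, 1.18 and 2.42 RPKM at the 8-cell stage (log2 fold change 2.09 ± 0.35, adjusted p = 6.03e-05). For neither gene did the stages overlap, and COX6B1 was close to equal in the 3 libraries of the 16-cell stage.

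The largest change of this step was in NDUFA2, a small accessory subunit of the NADH-oxidising part of complex I (chromosome 7, 58718293 to 58720154). It had 8.03, 8.51 and 14.6 RPKM at the 16-cell stage, against 0.807, 0.737 and 2.35 RPKM at the 8-cell stage, with a log2 fold change of 2.33 ± 0.37 (adjusted p = 4.28e-05). NDUFB2, an accessory subunit of the membrane arm (chromosome 4, 16399160 to 16403854), had 6.31, 4.3 and 5.0 RPKM at the 16-cell stage, against 0.528, 0.644 and 0.959 RPKM at the 8-cell stage (log2 fold change 1.85 ± 0.26, adjusted p = 1.37e-05). In both genes the lowest 16-cell library lay well above the highest 8-cell library.

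The other members called higher were NDUFB9 (log2 fold change 1.80, adjusted p = 0.00434), NDUFB7 (1.44, adjusted p = 0.000753) and ATP5F1B, the catalytic beta subunit of the ATP synthase (1.18, adjusted p = 0.00158). ATP5F1B was not called without 16-cell B, where the log2 fold change was 0.96. NDUFB7 lies wholly within the span of TECR on the other strand, which reached at most 1.04 RPKM in any library, and NDUFB9 overlaps 97 bp of TATDN1 on the other strand. Reads of such pairs cannot be told apart without strand information, which is not given in the sources used here.

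NDUFAB1 and SDHAF4 were called lower at the 16-cell stage. NDUFAB1, the mitochondrial acyl carrier protein, which is also an accessory subunit of complex I, had 0.459, 0.372 and 3.24 RPKM in 16-cell A, B and C, against 2.8, 3.2 and 5.92 RPKM in 8-cell A, B and C (log2 fold change -1.24 ± 0.46, adjusted p = 0.0271). The library 16-cell C stood above 8-cell A and 8-cell B, so the stages overlap, and the call was lost without 8-cell C, 16-cell A or 16-cell B. SDHAF4, an assembly factor that binds the flavin-carrying subunit of complex II, had 0.146, 0.0842 and 0.272 RPKM at the 16-cell stage, against 1.8, 0.964 and 1.42 RPKM at the 8-cell stage (log2 fold change -1.02 ± 0.22, adjusted p = 0.000641). Its stages did not overlap, but its fold change is close to the threshold, and the call was lost without 8-cell A or 16-cell B. With median-ratio scaling the split of the members was 7 higher and 0 lower, against 24.3% and 8.47% of all genes, and with quantile normalization 7 higher and 1 lower, against 18.1% and 18.0%.

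**Figure D3:**
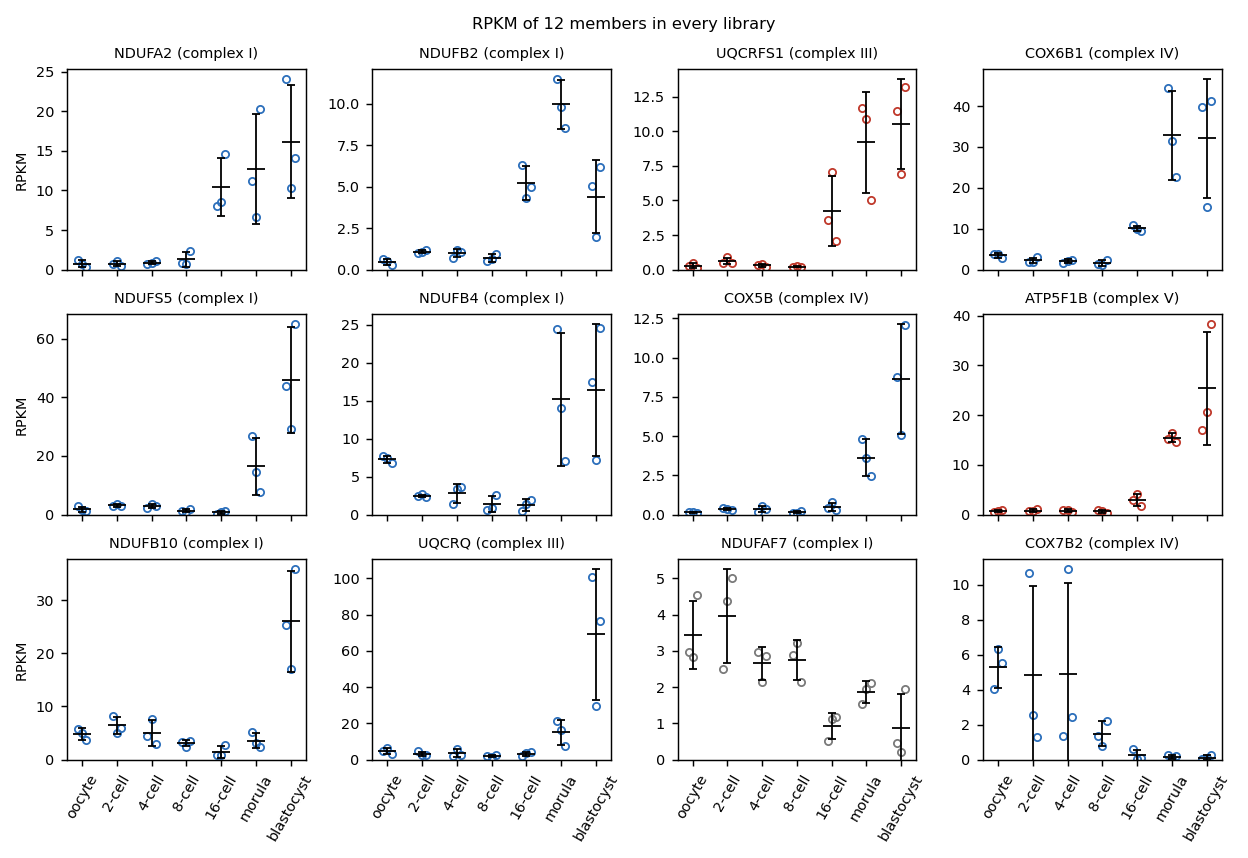
RPKM (y, linear from 0, scale of each panel its own) of 12 members in every library by stage (x); open circles are libraries, and the line and bar are the mean and SD of 3 libraries. NDUFA2, NDUFB2, UQCRFS1, COX6B1 and ATP5F1B were first called higher at the 16-cell stage, NDUFS5, NDUFB4, COX5B and UQCRQ in morulae, and NDUFB10 in blastocysts, where it is at 26.1 ± 9.48 RPKM, while NDUFAF7 and COX7B2 are low there.

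The morula was the stage at which most members rose. Against the 16-cell stage 22 of 43 members were called higher (51%) and 0 lower, against 11.4% and 4.66% of all genes tested. The median log2 fold change of the 43 was 1.05, against 0.01 over all genes, and 42 of the 43 were on the higher side, the exception being COX7B2 at -0.08. By complex, 13 of 23 tested complex I subunits, 1 of 4 of complex III, 2 of 4 of complex IV and 3 of 4 of complex V were called, together with the assembly factors NDUFAF1 and NDUFAF3 and the inhibitor ATP5IF1.

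NDUFS5, an accessory subunit of complex I on the intermembrane-space side (chromosome 3, 13829951 to 13836966), changed most. It had 26.9, 14.5 and 7.86 RPKM in morulae A, B and C, against 0.216, 0.77 and 1.33 RPKM in 16-cell embryos A, B and C. The log2 fold change was 3.19 ± 0.38 (adjusted p = 1.74e-05). The stages did not overlap, although morula C was the lowest morula and 16-cell C the highest 16-cell library.

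NDUFB4 (chromosome 1, 65009317 to 65015233), which had been high in oocytes, had 24.5, 14.0 and 7.05 RPKM in morulae, against 0.482, 1.41 and 1.97 RPKM at the 16-cell stage (log2 fold change 2.73 ± 0.44, adjusted p = 0.000323). COX5B, a zinc-binding subunit on the matrix side of complex IV (chromosome 11, 2871460 to 2877655), had 4.81, 3.59 and 2.48 RPKM in morulae, against 0.442, 0.781 and 0.265 RPKM at the 16-cell stage (log2 fold change 1.61 ± 0.23, adjusted p = 7.52e-05). In both genes morula A was the highest and morula C the lowest, and each morula lay above each 16-cell library.

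In complex V, ATP5F1B (chromosome 5, 56168016 to 56173675) had 15.3, 16.5 and 14.6 RPKM in morulae, against 2.88, 4.2 and 1.72 RPKM at the 16-cell stage, with a log2 fold change of 2.11 ± 0.28 (adjusted p = 5.87e-05). Its 3 morula libraries were nearly equal, unlike those of most members. ATP5IF1, the peptide that blocks ATP hydrolysis by the synthase (chromosome 2, 10824696 to 10826590), had 20.5, 9.11 and 7.35 RPKM in morulae, against 1.2, 0.913 and 2.48 RPKM at the 16-cell stage (log2 fold change 2.32 ± 0.44, adjusted p = 0.00102). The inhibitor and the catalytic subunit were thus both called at this step.

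The remaining calls at the morula stage had log2 fold changes of 1.05 to 2.07. Among the largest were NDUFAF3 at 2.07 (adjusted p = 0.000962), an assembly factor of the ubiquinone-binding module of complex I, UQCRQ at 1.89 (adjusted p = 0.00508), a small subunit of complex III, and NDUFB6 at 1.55 (adjusted p = 0.00183), an accessory subunit of the membrane arm. COX6B1 and NDUFB7, already higher at the 16-cell stage, were called again at 1.56 and 1.51. The core subunits NDUFS3 (1.45) and NDUFS7 (1.18), which belong to the arm that carries electrons to ubiquinone, were also called. NDUFS3 overlaps KBTBD4 on the other strand over 63.6% of its span, and KBTBD4 reached at most 0.294 RPKM.

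Of the 22 calls, 15 were made without each library in turn as well. NDUFA5, NDUFA9, NDUFA13, NDUFB3, NDUFB9, ATP5F1C and ATP5PB were lost without at least 1 library: morula A for NDUFA5, 16-cell A or morula B for NDUFA9, 16-cell A or morula A for NDUFA13, 16-cell C, morula A or morula B for NDUFB3, 16-cell A, 16-cell C, morula A or morula B for NDUFB9 and ATP5F1C, and morula B for ATP5PB. Without both 16-cell C and morula C 29 members were called higher and 0 lower, against 13.9% and 9.11% of all genes. NDUFA9, NDUFA13 and COX5B reached 1 RPKM in morula and blastocyst libraries only, so the filter favoured their calls.

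**Figure D4:**
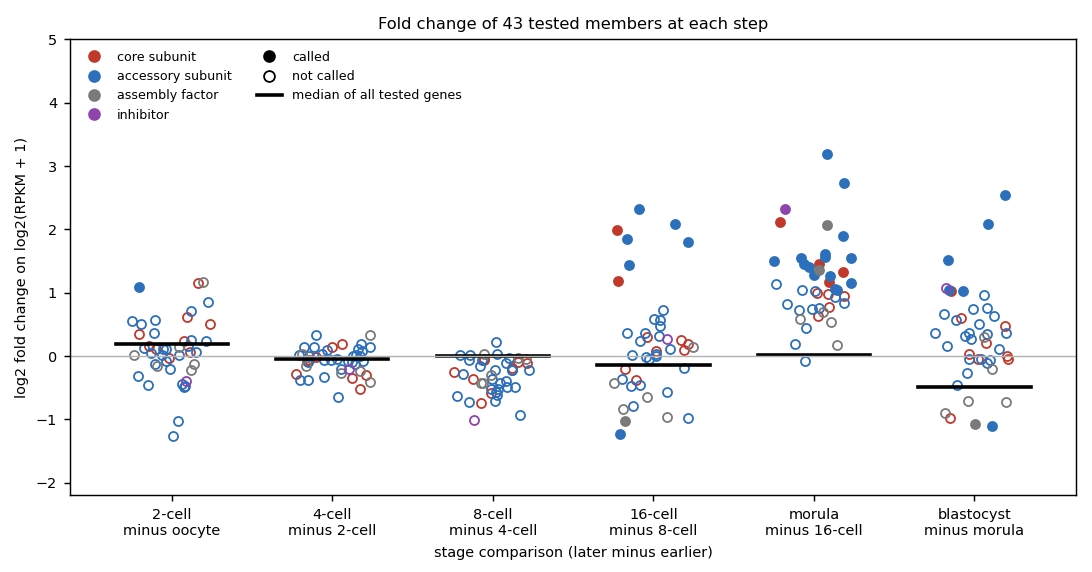
Log2 fold change on log2(RPKM + 1) (y) of the 43 tested members at each of 6 consecutive stage comparisons (x, later minus earlier); filled points are called, colours give the role, and the black bar is the median of all 4253 genes tested. Of the points, 1 is called at the 2-cell stage and 0 at the 4-cell and 8-cell stages, 7 are called higher at the 16-cell stage, and 42 of 43 lie above 0 in the morula.

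In blastocysts, 6 members were called higher than in morulae and 2 lower, which is 14% and 4.7% of the 43, against 3.93% and 25.3% of all genes tested. The median log2 fold change was 0.29 for the members and -0.48 for all genes. NDUFB10, an accessory subunit of the membrane arm on the intermembrane-space side (chromosome 25, 1427691 to 1429899), had 25.3, 17.0 and 36.0 RPKM in blastocysts A, B and C, against 5.12, 3.18 and 2.45 RPKM in morulae A, B and C. Its log2 fold change was 2.55 ± 0.36 (adjusted p = 2.09e-05). The stages did not overlap, and NDUFB10 had been at 1.49 ± 1.12 RPKM in 16-cell embryos, against 4.79 ± 1.09 RPKM in the oocyte.

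UQCRQ, a small subunit of complex III next to cytochrome b (chromosome 7, 66022668 to 66023554), reached the highest RPKM of any member, with 101.0, 29.8 and 76.7 RPKM in blastocysts, against 21.2, 16.2 and 7.39 RPKM in morulae (log2 fold change 2.08 ± 0.45, adjusted p = 0.00102). NDUFS5 rose again, with 43.7, 29.2 and 65.1 RPKM in blastocysts, against 26.9, 14.5 and 7.86 RPKM in morulae (log2 fold change 1.51 ± 0.38, adjusted p = 0.00315). In these genes every blastocyst lay above every morula, and blastocyst B was the lowest of its stage.

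COX5B rose by 1.02 on the log2 scale (adjusted p = 0.0012) and ATP5PB, a stalk subunit of the ATP synthase, by 1.04 (adjusted p = 0.00917). Both fold changes are at the threshold, and each call was lost without morula C or blastocyst C, that of COX5B also without blastocyst A. NDUFB2 had 5.04, 1.97 and 6.19 RPKM in blastocysts, against 11.5, 9.82 and 8.53 RPKM in morulae (log2 fold change -1.11, adjusted p = 0.00227). COX7A2L, a factor that joins complexes III and IV into supercomplexes, had 0.989, 0.0936 and 0.925 RPKM in blastocysts, against 3.23, 1.71 and 2.44 RPKM in morulae (log2 fold change -1.08, adjusted p = 0.0052). The stages did not overlap for either gene, and both calls were lost without blastocyst B, the one for COX7A2L also without morula A.

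The counts of members called at this step depended on the scaling. Reads on chromosome M took 30.8%, 45.8% and 33.7% of the gene reads in blastocysts A, B and C, against 9.77%, 13.7% and 3.23% in morulae A, B and C. As reads per 1 M gene reads outside chromosome M, the members held 18000, 13800 and 21100 in blastocysts, against 9710, 8070 and 4720 in morulae, and the stages did not overlap. With median-ratio scaling, which moved the median of all genes from -0.482 to -0.204, 17 members were called higher and 0 lower, against 9.93% and 16.4% of all genes. With quantile normalization (median of all genes -0.159) 23 were called higher and 0 lower, against 9.78% and 11.9%. NDUFB2 and COX7A2L were still on the lower side under both, at -0.49 and -0.81 with median-ratio scaling and -0.19 and -0.68 with quantile normalization.

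Over the whole interval, 31 of 43 members were called higher in blastocysts than in oocytes (72%) and 4 lower (9.3%), against 19.8% and 28.5% of all genes tested. The median log2 fold change was 1.47, against -0.33 over all genes. All 4 tested subunits of complex III and all 4 of complex V were called higher, as were 19 of 23 of complex I and 2 of 4 of complex IV; the tested complex II subunit, SDHD, was at -0.47 and not called (adjusted p = 0.308). Of the 9 tested core subunits 8 were called higher, and of the 27 accessory subunits 21 were called higher and 1 lower.

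The largest differences were in NDUFS5, ATP5F1B, UQCRQ and NDUFB7, which belong to complexes I, V, III and I. NDUFS5 had 43.7, 29.2 and 65.1 RPKM in blastocysts, against 2.76, 1.71 and 1.06 RPKM in oocytes, and its log2 fold change was 4.02 ± 0.38 (adjusted p = 3.02e-08). ATP5F1B had 17.1, 20.7 and 38.4 RPKM in blastocysts, against 0.606, 0.62 and 0.971 RPKM in oocytes (log2 fold change 3.85 ± 0.28, adjusted p = 1.1e-09). UQCRQ followed at 3.50 ± 0.45 (adjusted p = 1.54e-06) and NDUFB7 at 3.32 ± 0.31 (adjusted p = 3.16e-08). For NDUFS5 and ATP5F1B the lowest blastocyst library was far above the highest oocyte library.

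Among the core subunits, UQCRFS1 had 11.5, 6.88 and 13.2 RPKM in blastocysts, against 0.299, 0.454 and 0.0912 RPKM in oocytes (log2 fold change 3.13 ± 0.32, adjusted p = 7.99e-08). NDUFV1, which binds NADH and the flavin of complex I (chromosome 29, 46509250 to 46515996), had 1.46, 2.26 and 1.1 RPKM in blastocysts, against 0.0775, 0.0479 and 0.0237 RPKM in oocytes (log2 fold change 1.29 ± 0.14, adjusted p = 2.05e-07). The stages did not overlap for either gene, and because NDUFV1 was low in oocytes, the log2(RPKM + 1) scale shortens its difference. NDUFV1 reached 1 RPKM in the 3 blastocysts only, so it entered the test through the stage where it was high. UQCRC1, NDUFA9, NDUFA13 and COX5B, among others, reached 1 RPKM in morula and blastocyst libraries only. The count of members called higher includes these calls and that of NDUFV1, which the filter favoured.

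UQCRC1 and UQCRC2, the large matrix-side subunits of complex III, were both called but differed in how even the blastocysts were. UQCRC1 had 1.55, 1.39 and 3.38 RPKM in blastocysts, against 0.0795, 0.104 and 0.0574 RPKM in oocytes (log2 fold change 1.47 ± 0.17, adjusted p = 3.43e-07). UQCRC2 had 2.89, 1.86 and 19.6 RPKM in blastocysts, against 0.942, 1.06 and 2.76 RPKM in oocytes (log2 fold change 1.31 ± 0.46, adjusted p = 0.0173). The stages overlap for UQCRC2, and without blastocyst C its log2 fold change was 0.44.

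Blastocyst C was also far above its stage mates for other members. NDUFB9 had 13.7, 5.6 and 54.0 RPKM in blastocysts A, B and C, and ATP5F1C, the central-stalk gamma subunit of the ATP synthase, had 11.2, 8.05 and 42.6 RPKM. Without blastocyst C the calls of NDUFA12, NDUFS3, NDUFS7, UQCRC2, ATP5F1C and ATP5F1D were lost. NDUFA1 was not called without blastocyst A, NDUFS6 without blastocyst A or oocyte C, and UQCRC2 also without oocyte A or oocyte B. Of the 35 calls of this comparison, 25 were made in every fit that left out 1 library and still tested the gene. NDUFV1 is among the 25 but was tested in only 18 such fits. Without any 1 blastocyst library it fell under the filter.

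Of the 43 members, 8 were not called between blastocysts and oocytes. NDUFA6 was at 5.86 ± 2.34 RPKM in blastocysts and 5.23 ± 2.19 RPKM in oocytes, after 0.826 ± 0.321 RPKM at the 8-cell stage. NDUFB5 was at 3.23 ± 2.6 RPKM in blastocysts and 2.09 ± 0.126 RPKM in oocytes. COX8A, a small subunit of complex IV, had 10.7, 0.83 and 2.08 RPKM in blastocysts, against 1.35, 2.32 and 0.48 RPKM in oocytes, and the stages overlap.

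**Figure D5:**
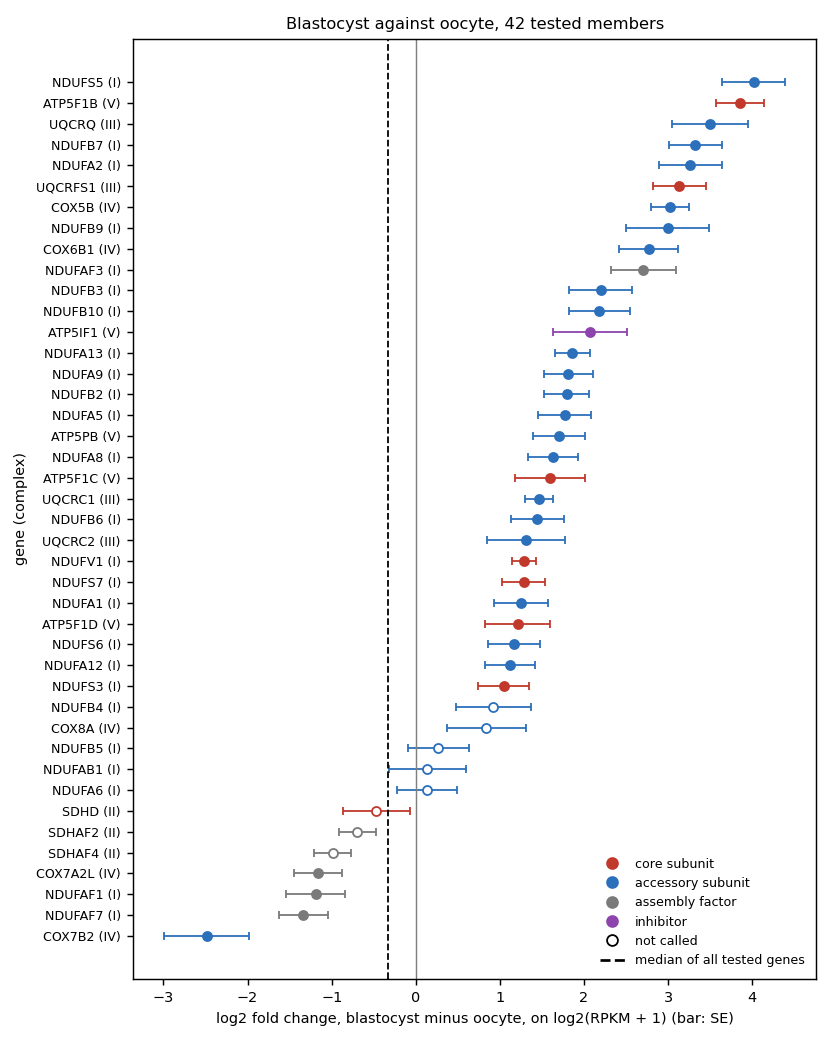
Log2 fold change of blastocysts minus oocytes on log2(RPKM + 1) (x) with its SE (bar) for 42 of the tested members (y, with their complex), coloured by role; filled points are called, and the dashed line is the median of all genes tested at -0.33. NDUFS5 is highest at 4.02 and COX7B2 lowest at -2.48, and 5 of the 6 tested assembly factors are below 0.

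The step of the first call was counted for each rising gene. Of the 31 members higher in blastocysts than in oocytes, 1 was first called higher at the 2-cell stage, 7 at the 16-cell stage, 15 in the morula and 2 in blastocysts (NDUFB10 among them), while 6 passed no single step. Of all 842 genes called higher in blastocysts, 2.9% were first called at the 2-cell stage, 1.1% at the 8-cell stage, 42.5% at the 16-cell stage, 19.7% in the morula and 12.2% in blastocysts, and 21.6% passed no single step. The 2 distributions were not compared by a test.

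Assembly factors were called in both directions. Of the 6 tested, 1 was called higher in blastocysts than in oocytes (NDUFAF3) and 3 lower, against 19.8% and 28.5% of all genes tested. For 6 genes this split is near the background. NDUFAF7, a methyltransferase needed for the assembly of complex I (chromosome 11, 19514275 to 19528019), had 0.465, 0.203 and 1.94 RPKM in blastocysts, against 2.97, 2.82 and 4.53 RPKM in oocytes (log2 fold change -1.34 ± 0.29, adjusted p = 0.000493). NDUFAF1, which helps to build the membrane arm of complex I, had 0.333, 0.294 and 3.43 RPKM in blastocysts, against 3.0, 2.45 and 5.57 RPKM in oocytes (log2 fold change -1.19 ± 0.35, adjusted p = 0.0055). The stages did not overlap for NDUFAF7 and overlap for NDUFAF1 through blastocyst C.

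COX7A2L had 0.989, 0.0936 and 0.925 RPKM in blastocysts, against 3.28, 2.93 and 1.8 RPKM in oocytes (log2 fold change -1.16 ± 0.29, adjusted p = 0.00151). The call of COX7A2L was lost without blastocyst B, and that of NDUFAF1 without oocyte C, blastocyst A or blastocyst B. NDUFAF3 (chromosome 22, 51041500 to 51042461) had 9.5, 4.05 and 17.9 RPKM in blastocysts, against 0.937, 0.498 and 0.241 RPKM in oocytes (log2 fold change 2.71 ± 0.39, adjusted p = 5.24e-06). Its stages did not overlap. SDHAF2 (-0.70, adjusted p = 0.00952) and SDHAF4 (-0.99, adjusted p = 0.000552) were on the lower side, with fold changes under the threshold.

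Division by the span hides genes with long introns, so the members were also fitted as RPM (reads per 1 M of the implied total reads, without division by the span), where 10384 genes and 49 members could be tested (all but COX7A1, NDUFAF8 and SDHAF1). At the 16-cell stage 9 of 49 members were called higher and 6 lower, against 15.4% and 30.7% of genes. In morulae 29 were called higher and 0 lower, against 9.44% and 7.59%. In blastocysts against morulae 11 were called higher and 6 lower, against 7.74% and 28.1%. In blastocysts against oocytes 35 were called higher and 6 lower, against 20.8% and 36.6%. All 75 calls made on RPKM were called in the same direction on this scale.

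Complex II could be seen on this scale only in part, and its subunits differed. SDHA, the flavoprotein that oxidises succinate (chromosome 20, 71719671 to 71741368), held 334, 465 and 463 reads in blastocysts A, B and C, against 21, 20 and 20 reads in oocytes A, B and C. On log2(RPM + 1) it was higher in blastocysts than in oocytes by 2.88 ± 0.26 (adjusted p = 5.56e-09), with calls of 1.58 in morulae and 1.11 in blastocysts over the preceding stage. SDHC, a membrane anchor of the complex (chromosome 3, 111916938 to 111943483), held 212, 17 and 305 reads (not scaled for depth) in blastocysts, against 922, 293 and 638 in morulae, and differed by -1.73 ± 0.52 (adjusted p = 0.0111). SDHC was also called lower at the 16-cell stage than at the 8-cell stage, at -1.56 (adjusted p = 0.0154).

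The other anchor, SDHD, had 3.0, 0.724 and 6.62 RPKM in blastocysts, against 7.46, 6.39 and 5.34 RPKM in morulae, with a log2 fold change of -0.97 that did not pass (adjusted p = 0.055). Blastocyst C lay within the range of the morulae. The flavinylation and assembly factors SDHAF2 and SDHAF4 were called lower in blastocysts than in oocytes in RPM, at -1.45 (adjusted p = 0.00866) and -2.98 (adjusted p = 1.48e-05). SDHA was therefore the member of complex II called higher in blastocysts, while SDHAF2 and SDHAF4 were called lower.

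Among the other members too low for the test on RPKM, the core subunit NDUFS1, the large iron-sulfur subunit of complex I (chromosome 2, 41434194 to 41462587), held 14, 14 and 59 reads at the 16-cell stage, against 449, 453 and 404 at the 8-cell stage. It differed by -2.54 ± 0.55 in RPM (adjusted p = 0.000813), and rose by 2.16 in blastocysts against morulae (adjusted p = 0.00349), with 489, 471 and 1435 reads in blastocysts, against 602, 16 and 100 in morulae. The stages overlap through morula A, which at 0.389 RPKM lay among the blastocysts. The accessory subunit NDUFA10 was higher in blastocysts than in oocytes by 3.60 ± 0.36 (adjusted p = 2.12e-08) and the accessory subunit NDUFS4 by 1.88 ± 0.75 (adjusted p = 0.0318). The assembly factor NDUFAF5, at -0.69, was not called (adjusted p = 0.104). The assembly factors NDUFAF8 and SDHAF1 held at most 59 and 14 reads in any library.

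Of the tissue-specific forms of complex IV subunits, COX7B2 was an oocyte and early cleavage transcript and COX7A1 was nearly absent. COX7B2, known in mammals as the testis form of COX7B (chromosome 6, 65883853 to 65884090), had 4.01, 6.31 and 5.55 RPKM in oocytes A, B and C, 10.7, 2.57 and 1.28 RPKM at the 2-cell stage, 1.32, 10.9 and 2.43 RPKM at the 4-cell stage, and 1.37, 0.8 and 2.22 RPKM at the 8-cell stage. From the 16-cell stage on it held 0 to 7 reads per library, so its level there is close to the limit of 3 reads that a count of 0 allows. It was lower in blastocysts than in oocytes, with a log2 fold change of -2.48 ± 0.50 (adjusted p = 0.000249). Its span of 237 bp is the shortest of the members, and 2-cell A and 4-cell B stood far above their stage mates. COX7A1, the heart and skeletal muscle form, held 0 to 18 reads per library and 0 in every 8-cell and morula library. The widely expressed partners COX7A2 and COX7B were not among the members that the symbol rule found, so these forms could not be compared.

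The subunits encoded in mitochondrial DNA took another course. All 13 were called higher in blastocysts than in oocytes, against 19.8% of all genes tested. At the 16-cell stage over the 8-cell stage 2 were called higher, against 19.4%. In morulae over the 16-cell stage 0 were (also 0 at an unadjusted p below 0.05), against 11.4%. For 13 genes, these counts of 2 and 0 are near the background. In blastocysts over morulae 5 were called higher, against 3.93%. In these comparisons limma called 0 lower, against 28.5%, 15.9%, 4.66% and 25.3% of all genes, in the same order. The median log2 fold change of the 13 in morulae was -0.22, where that of the nuclear members was 1.05. They held 97600 ± 30300 reads per 1 M gene reads at the 16-cell stage, 80700 ± 49900 in the morula and 322000 ± 69100 in blastocysts, with 31200 in morula C. The 2 sets share the libraries and the total by which reads are scaled, and no test of the difference was made.

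Other genes of the pathway were followed from lists outside the symbol rule. CYC1, the cytochrome c1 subunit of complex III, had 0.204 ± 0.102 RPKM in oocytes, 1.88 ± 0.895 RPKM in morulae and 9.44 ± 4.3 RPKM in blastocysts, and rose by 1.83 in blastocysts over morulae (adjusted p = 1.77e-05) and by 1.18 in morulae over the 16-cell stage (adjusted p = 0.00262). Of the 6 tested subunits and carriers of that list, 2 were called higher in blastocysts than in oocytes (CYC1 and ETFB) and 2 lower (ETFA and COQ7), against 19.8% and 28.5% of all genes. ETFA and ETFB are the partner subunits of the flavoprotein that feeds electrons from fatty acid oxidation into the chain, and they differed by -2.02 (adjusted p = 1.03e-05) and 1.51 (adjusted p = 0.000132). Partner subunits of a dimer were thus called in opposite directions.

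Of 8 tested assembly factors outside the rule, 3 were called higher at the 16-cell stage and 1 lower (COA1), against 19.4% and 15.9% of all genes tested. TMEM70, which helps to assemble the ATP synthase, had 12.6 ± 9.19 RPKM at the 16-cell stage and 0.733 ± 0.249 RPKM at the 8-cell stage (log2 fold change 2.77, adjusted p = 1.42e-05), and fell by 2.84 in blastocysts against morulae (adjusted p = 1.77e-05). TMEM126B, an assembly factor of the complex I membrane arm, rose by 1.77 at the 16-cell stage (adjusted p = 0.000581) and fell by 1.54 in blastocysts (adjusted p = 0.00253). Both were highest in morulae.

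Of 14 tested regulators of mitochondrial biogenesis, 5 were called higher at the 16-cell stage and 2 lower, against 19.4% and 15.9% of all genes. In blastocysts against morulae 1 was called higher and 6 lower, against 3.93% and 25.3%. GABPA, the DNA-binding subunit of a factor known in mammals to act on many respiratory chain promoters, had 18.3 ± 10.3 RPKM at the 16-cell stage and 1.3 ± 0.467 RPKM at the 8-cell stage (log2 fold change 2.92, adjusted p = 8.73e-07). It was at 0.481 ± 0.522 RPKM in blastocysts and 6.43 ± 1.35 RPKM in morulae, and in blastocysts it fell by 2.37 on the log2 scale against morulae (adjusted p = 1.52e-05). TEFM, an elongation factor of mitochondrial transcription, had 3.56 ± 3.91 RPKM in blastocysts and 28.2 ± 3.21 RPKM in morulae. GABPA was highest at the 16-cell stage and TEFM in morulae.

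Of 7 tested carriers and membrane proteins, 3 were called higher at the 16-cell stage and 2 lower, where all genes gave 19.4% and 15.9%. SLC25A3, the phosphate carrier that supplies the ATP synthase, had 11.5 ± 6.83 RPKM at the 16-cell stage and 0.577 ± 0.14 RPKM at the 8-cell stage (log2 fold change 2.86, adjusted p = 2.23e-05). Of 9 tested citric acid cycle and pyruvate entry genes, 2 were called higher in morulae (IDH3B and MDH2) and 0 lower, against 11.4% and 4.66% of all genes. In that list 3 were called higher in blastocysts than in oocytes, against 19.8% of all genes, led by MDH2, mitochondrial malate dehydrogenase, at 2.57 (adjusted p = 4.77e-09). The lists were not compared with the members by a test.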

How the data were processed

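The authors deposited 1 table of RPKM values, libraries in columns and genes in rows. Per the submitters' processing notes the tools were STAR 2.5.3a, FastQC and Partek, with no order stated. The build, the strandedness and the treatment of reads with several matches were not given in the sources used here, so genes with near-identical copies are uncertain. The lowest value was 0.01 in every library. After subtraction of this offset and multiplication by the gene span, low values fell on whole multiples of a step worth 1 read (94.5 to 96.2% within 0.05 of a step), which gave reads per gene and 24 to 66.5 M implied total reads per library. These reads describe depth, and the floor of 3 reads covers counting error only.

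Libraries were grouped by title. Genes that reached 1 RPKM in 3 or more libraries were fitted with limma 3.58.1 (trend and robust) in R 4.3.3 on log2(RPKM + 1), in 1 model of 7 stages and 21 libraries, with two-sided tests, Benjamini-Hochberg adjustment over all genes tested and a threshold of 0.05 with an absolute log2 fold change of 1. The fit was also run on simulated data with independent normal noise, in which no library stood apart from its stage mates. That run thus does not cover libraries such as morula C. The tables came from pandas 2.3.3 and numpy 2.4.6 under Python 3.11.15 and the figures from matplotlib 3.10.9. The members and lists were chosen with earlier results of these data known. The genes named are called members, up to 12 per comparison and direction, tissue-specific forms, core subunits, untested members and up to 3 called genes of each list; a few members outside this rule (the highest or lowest of a set, or near the threshold) were named after their values were seen. No label says that the letters A to C join libraries across stages. Correlations of same-letter deviations between stages ran from -0.410 to 0.318. With 3 libraries per stage they cannot decide whether the letters pair libraries. Alternatives were a pseudocount of 0.1, a filter of 5 RPKM, no filter, median-ratio scaling, quantile normalization, no division by the span, the letter as a block, and libraries left out. Sequences of the members were not used here, and 1 member is not reported here on its own.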

Additional observations from a re-analysis of the deposited data

How the results depend on the processing

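Of the 75 calls of members over 7 comparisons, 49 were also made without each library in turn, and 0 changed direction under any setting. All 75 were made with a pseudocount of 0.1, without division by the gene span and with the replicate letter as a block; 72 without 16-cell C and morula C together, 71 without a filter, 70 with median-ratio scaling and 67 with quantile normalization. With the filter of 5 RPKM, 44 calls could be tested and all 44 were made. The cause of the losses was not tested, except that the filter of 5 RPKM leaves 21 members.

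Brackets give the genes called among all genes tested under the same setting. For the 2-cell stage against the oocyte, the 1 member called higher (186 of 4253) became 2 with a pseudocount of 0.1 (334 of 4253). It became 0 with the filter of 5 RPKM (108 of 1868), median-ratio scaling (35 of 4229) and quantile normalization (109 of 4253). It became 5 without the span (1451 of 10384), 2 with the replicate block (183 of 4253) and 2 without 16-cell C and morula C (228 of 4151). The 0 called lower (17 of 4253) became 3 with median-ratio scaling (154 of 4229), 2 with quantile normalization (81 of 4253) and 2 without 16-cell C and morula C (33 of 4151). For the 16-cell stage, the 2 called lower (675 of 4253) became 6 with a pseudocount of 0.1 (1212 of 4253) and 6 without the span (3187 of 10384). They became 1 with the filter of 5 RPKM (433 of 1868), 1 without a filter (622 of 19040) and 1 with quantile normalization (766 of 4253). With median-ratio scaling the count was 0 (358 of 4229), and without 16-cell C and morula C it was 4 (915 of 4151). For the morula, the 22 called higher (485 of 4253) became 13 with the filter of 5 RPKM (369 of 1868). For blastocysts against morulae, the 6 called higher (167 of 4253) became 17 with median-ratio scaling (420 of 4229), 23 with quantile normalization (416 of 4253) and 11 without the span (804 of 10384). The 2 called lower (1077 of 4253) became 6 with a pseudocount of 0.1 (1891 of 4253), 1 with the filter of 5 RPKM (850 of 1868) and 6 without the span (2923 of 10384). With median-ratio scaling (692 of 4229) and quantile normalization (508 of 4253) 0 were called lower. For blastocysts against oocytes, the filter of 5 RPKM gave 16 higher (542 of 1868) and 1 lower (806 of 1868). The F test then called 20 (1786 of 1868).

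Leaving out 1 library at a time gave 0 to 3 higher and 0 to 2 lower at the 2-cell stage, 6 to 7 and 1 to 4 at the 16-cell stage, 17 to 27 higher in morulae, 3 to 8 and 0 to 6 in blastocysts against morulae, 24 to 32 and 2 to 5 against oocytes, and 38 to 41 in the F test. The 4-cell and 8-cell counts stayed at 0 under every setting run. The replicate block changed no other count of calls.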
